A study of Homo sapiens with 6 samples.

Results

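ERBB3, which encodes the receptor HER3, was described together with 8 genes grouped with it as regulators or as its closest family. These were the forkhead factors FOXO1, FOXO3, FOXO4 and FOXO6 and the ubiquitin ligase genes RNF41 and NEDD4. The others were the receptor antagonist LRIG1 and the neuregulin receptor ERBB4. FOXO6 is not among the factors listed below as reported at the ERBB3 gene. The genes were chosen by symbol for their known roles, at a time when earlier results of these data were known, and all 9 had a row among the 30051 genes of the count table. A filter on low counts kept 8 of them among 13341 genes tested, and ERBB4 was too low to be tested. The study treated MDA-MB-231 cells, an established human line of claudin-low triple-negative breast cancer, and its title names HER3 together with panobinostat. One group of 3 libraries came from cells given 50 nM panobinostat, an inhibitor of histone deacetylases, for 24 h. The other group of 3 libraries came from cells given the solvent DMSO for the same 24 h. All 6 libraries were from the same line grown in DMEM/F-12 medium with serum, and the labels give no other treatment, so the values describe 1 line at 1 dose and 1 time. The panobinostat libraries carry the replicate numbers 1, 2 and 4 and the DMSO libraries 1, 2 and 3.

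HER3 is a member of the epidermal growth factor receptor family that binds neuregulins but has little kinase activity of its own. It signals by pairing with HER2 or EGFR, after which its phosphorylated tail recruits PI3-kinase and activates AKT. FOXO factors stand at both ends of this chain: AKT phosphorylates them and keeps them out of the nucleus, and when AKT activity falls they enter the nucleus and switch on genes, with ERBB3 among their reported targets in breast cancer cells. The amount of HER3 protein is also set by its removal, through the ubiquitin ligases encoded by RNF41 (also called Nrdp1) and NEDD4 and through LRIG1, a transmembrane protein that promotes loss of ERBB receptors. The libraries measure transcripts, not protein.

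The promoters of the 4 FOXO genes are shown because these genes code for one family of factors and their transcripts differed widely in response. Each sequence is the 250 bases before the outermost RefSeq start of the gene on GRCh38.p14, read 5′ to 3′ on the strand of the gene, with every GC box (GGGCGG or its reverse complement) in capitals. The windows are chr13:40666642-40666891 on the minus strand for FOXO1, chr6:108559575-108559824 on the plus strand for FOXO3, chrX:71095601-71095850 on the plus strand for FOXO4 and chr1:41361184-41361433 on the plus strand for FOXO6.
FOXO1: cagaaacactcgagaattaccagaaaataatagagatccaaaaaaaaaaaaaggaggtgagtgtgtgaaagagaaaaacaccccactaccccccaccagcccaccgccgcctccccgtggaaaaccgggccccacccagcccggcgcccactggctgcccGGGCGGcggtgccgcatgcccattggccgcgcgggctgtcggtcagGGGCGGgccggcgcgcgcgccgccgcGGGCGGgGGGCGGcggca
FOXO3: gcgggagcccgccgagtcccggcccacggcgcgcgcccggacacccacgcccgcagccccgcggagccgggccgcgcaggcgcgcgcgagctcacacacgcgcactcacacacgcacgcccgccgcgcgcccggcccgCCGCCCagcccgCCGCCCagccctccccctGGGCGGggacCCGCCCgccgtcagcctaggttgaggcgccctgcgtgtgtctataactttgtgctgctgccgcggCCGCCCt
FOXO4: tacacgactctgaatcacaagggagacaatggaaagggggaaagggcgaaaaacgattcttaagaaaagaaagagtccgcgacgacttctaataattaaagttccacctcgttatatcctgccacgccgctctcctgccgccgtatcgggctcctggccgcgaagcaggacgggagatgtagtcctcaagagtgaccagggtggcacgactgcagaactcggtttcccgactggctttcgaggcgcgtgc
FOXO6: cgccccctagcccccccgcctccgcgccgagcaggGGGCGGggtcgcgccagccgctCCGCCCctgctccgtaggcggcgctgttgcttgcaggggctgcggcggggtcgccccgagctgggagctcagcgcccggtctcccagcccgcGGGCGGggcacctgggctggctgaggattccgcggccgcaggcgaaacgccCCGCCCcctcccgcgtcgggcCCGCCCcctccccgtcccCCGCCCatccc

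The FOXO6 window held 6 GC boxes, FOXO3 held 5, FOXO1 held 4 and FOXO4 held 0, and their GC content was 81.6%, 80.4%, 67.2% and 54.4%. Over all 35116 promoter windows of the same length in the RefSeq table, 42.6% held a GC box and the median GC content was 58.0%. The FOXO1 window also held CCAAT, which 32.0% of all windows hold, and 1 match to the AP-2 letters GCCNNNGGC that overlaps a GC box. FOXO3 and FOXO6 had 1 AP-2 match each, against 19.8% of all windows with any. Letters of the FOXO site (TGTTTAC), the E-box (CACGTG) and the TATA box (TATAAA) were also searched on both strands. The windows searched were those of the 4 FOXO genes, RNF41, LRIG1, NEDD4 and ERBB4. ERBB3 had no window among those used, so its promoter was not searched. None of the 8 windows held these letters. They occur in 2.98%, 6.34% and 10.7% of all windows. Of the 4 FOXO genes, FOXO6, FOXO1 and FOXO4, with 6, 4 and 0 GC boxes, rose, and FOXO3 with 5 was not called. A relation of GC boxes to the change was not tested.

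The libraries held 5389638 to 15106148 counts. Panobinostat changed a large part of the transcriptome: 58.9% of the tested genes were called at an adjusted p under 0.05 in edgeR's quasi-likelihood test, with 30.2% higher and 28.6% lower, and the values of the groups did not overlap for 69.0%. Levels are given in CPM, the counts divided by the TMM-scaled library total and multiplied by 1000000. In a principal component analysis of log2 CPM, the first axis carried 86.2% of the variance, and panobinostat replicates 1, 2 and 4 lay at 67.1, 68.3 and 22.6 and the DMSO libraries at −51.3, −53.6 and −53.0. Panobinostat replicate 4 thus stood apart from the other 2 panobinostat libraries, towards DMSO. Its value lay between the DMSO libraries and the other panobinostat libraries for 91.1% of the genes called higher and 92.3% of those called lower. Without it, 37.7% of the tested genes were called higher and 37.2% lower. Changes are therefore also given without that library.

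The cells were checked against marker genes of the line and of other cell types. The claudin-low markers, 7 tested of 8, summed to 7115 to 7199 CPM in panobinostat and 7444 to 7551 CPM in DMSO, with 2 called higher, 4 lower and 1 not called. ZEB1 (−0.91 ± 0.15 on the log2 scale), CAV1 (−0.65 ± 0.11), AXL (−0.34 ± 0.08) and MSN (−0.13 ± 0.04) were called lower, FN1 (0.31 ± 0.07) and VIM (0.16 ± 0.05) higher, and CD44 (0.09 ± 0.05) was not called. VIM and MSN lost their calls when any library other than panobinostat replicate 4 was left out. VIM also lost its call with no filter on low counts and in the DESeq2 Wald test, and MSN with scaling by library totals only. Their adjusted p reached 0.297 and 0.101 over the alternatives (edgeR, DESeq2 or limma). VIM, the vimentin gene, was the most abundant of them at 2870 CPM in panobinostat and 2567 CPM in DMSO.

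The luminal epithelial markers, 7 tested of 14, summed to 709 to 856 CPM in panobinostat and 608 to 613 CPM in DMSO, with 2 called higher, 3 lower and 2 not called. KRT19, a keratin gene, averaged 315 CPM in panobinostat and 58.6 CPM in DMSO, a larger gap than that between the sums. CLDN4 was also higher (1.64 ± 0.29 on the log2 scale), while KRT18 (−0.49 ± 0.09), EPCAM (−0.77 ± 0.17) and GATA3 were called lower, KRT18 with 167 CPM in panobinostat and 233 CPM in DMSO. The endothelial markers, 2 tested of 5, summed to 37.5 to 57.1 CPM in panobinostat and 16.3 to 20.5 CPM in DMSO. KDR rose (1.96 ± 0.24), while PECAM1 averaged 4.64 CPM in panobinostat and 6.88 CPM in DMSO (−0.58 ± 0.23) and was called lower only where panobinostat replicate 4 was left out or down-weighted, with the replicate block or with no filter. Among fibroblast markers COL1A1 was the only one tested of 6 and rose (2.13 ± 0.19), with sums of 55.5 to 90.6 CPM in panobinostat and 17.1 to 19.2 CPM in DMSO. Among leukocyte markers CD14 was the only one tested of 6 with a row and rose (2.21 ± 0.36), with sums of 2.11 to 3.55 CPM in panobinostat and 0.427 to 1.10 CPM in DMSO and CD3D at 0. The part of these markers in the changes of the 9 genes was not tested.

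Of the 8 tested genes, 5 rose and 1 fell, and 2 were not called, where 58.9% of all tested genes were called, 30.2% higher and 28.6% lower. Their median log2 fold change was 0.91, beside 0.00 over all tested genes. ERBB3, FOXO6, FOXO1, FOXO4 and RNF41 rose, in that order of size, NEDD4 fell, and FOXO3 and LRIG1 were not called. The groups did not overlap for 6 of the 8, a share near the 69.0% of all tested genes. Without panobinostat replicate 4 the same 5 genes were called higher and the same 1 lower, where 37.7% of all tested genes were higher and 37.2% lower.

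**Figure D1:**
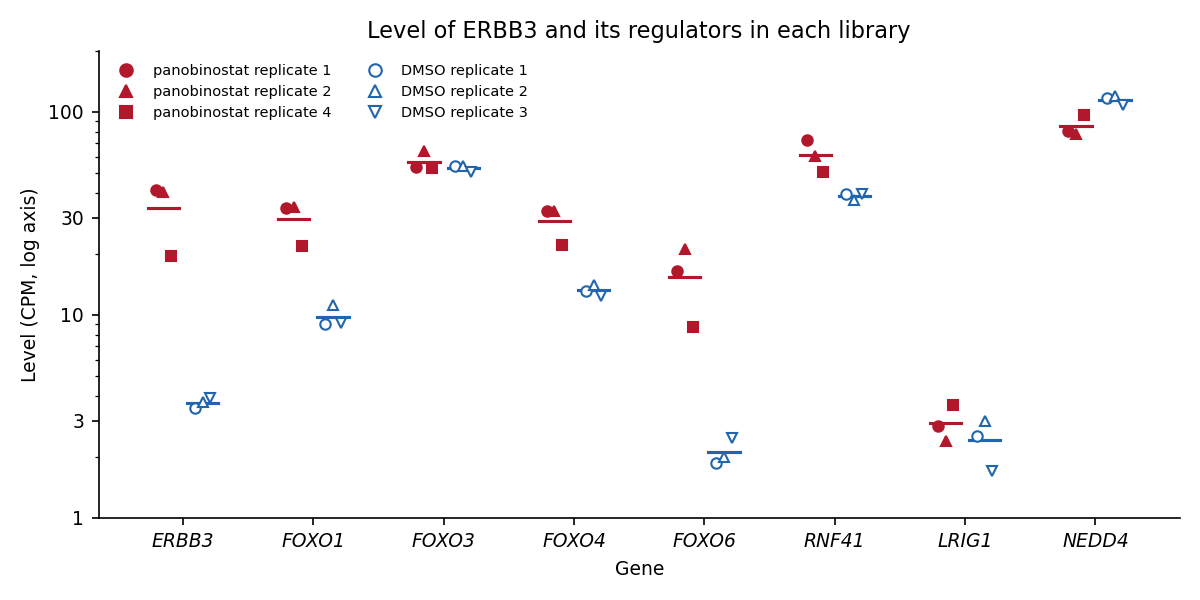
Level of the 8 tested genes in each library, in CPM on a log axis. Filled red symbols are the 3 panobinostat libraries, open blue symbols the 3 DMSO libraries and lines the group means. For ERBB3 the panobinostat libraries lie between 19.6 and 41.1 CPM, above the DMSO libraries between 3.47 and 3.88 CPM, while for FOXO3 and LRIG1 the groups overlap.

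ERBB3, on chromosome 12 from 56080108 to 56103505, had 625, 219 and 130 counts in panobinostat replicates 1, 2 and 4, and 41, 26 and 25 counts in DMSO replicates 1, 2 and 3. Scaled for depth these were 41.1, 40.3 and 19.6 CPM in panobinostat, against 3.47, 3.70 and 3.88 CPM in DMSO. Every panobinostat library was several times above every DMSO library. The means were 33.6 ± 12.2 CPM in panobinostat and 3.68 ± 0.203 CPM in DMSO (SD, n = 3 each), a log2 fold change of 3.21 ± 0.31 (SE; 95% interval 2.49 to 3.93; edgeR adjusted p = 0.000631; higher in 3 of 3 libraries). That is 9.23-fold, with an interval of 5.60 to 15.2-fold, and ERBB3 ranked 191 by size among the 4032 genes called higher. In cells grown as a population, more cells with the transcript and more transcript per cell cannot be told apart.

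Most of the spread within panobinostat lay with replicate 4. Over the DMSO mean, ERBB3 was 11.2-fold in replicate 1, 10.9-fold in replicate 2 and 5.31-fold in replicate 4. The coefficient of variation was 36.2% in panobinostat and 5.50% in DMSO. Without replicate 4 the log2 fold change was 3.48. Per kilobase of exon sequence, which allows levels to be set beside those of other genes, ERBB3 was at 3.72 ± 1.35 CPM in panobinostat and 0.408 ± 0.0224 CPM in DMSO (SD, n = 3 each). This level exceeded that of 36.3% of the tested genes in panobinostat and of 6.31% in DMSO. Per kilobase, ERBB3 was thus among the scarcest tested transcripts of cells given DMSO and still below the median gene in panobinostat.

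**Figure D2:**
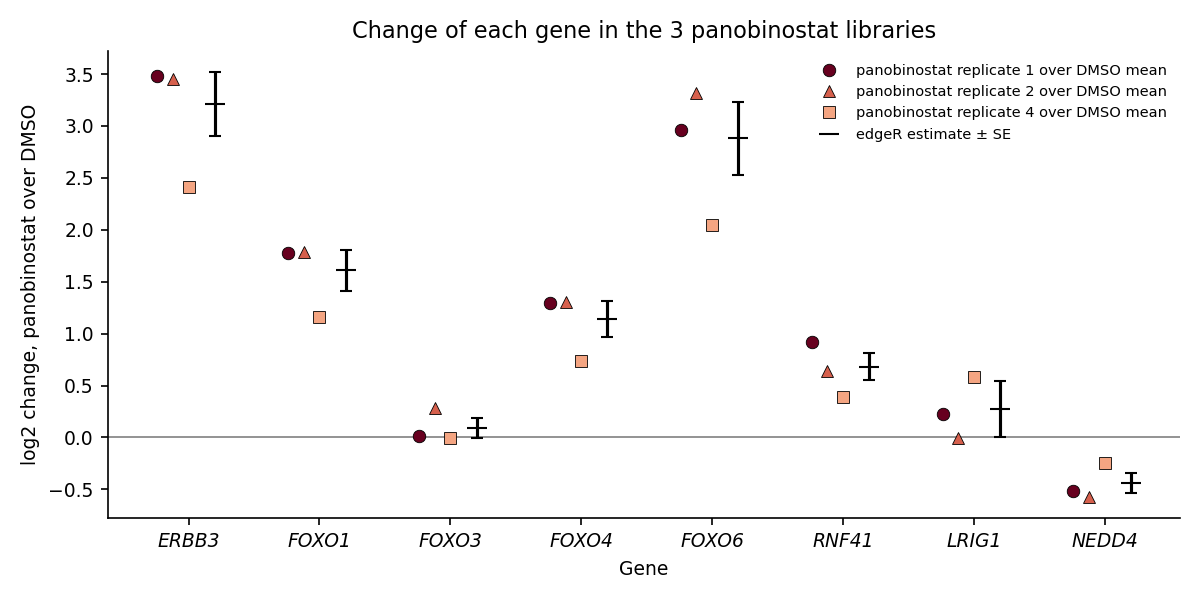
The log2 change of each gene in each panobinostat library over the mean of the DMSO libraries (coloured symbols), with the edgeR estimate and its SE (black). Panobinostat replicate 4 (square) is the nearest of the 3 libraries to 0 for the 5 genes that rose and for NEDD4.

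Among the FOXO genes, FOXO6 changed most in fold. FOXO6 encodes a family member best known from brain that shuttles out of the nucleus less than its relatives. On chromosome 1 from 41361434 to 41383590, it had 16.4, 21.1 and 8.73 CPM in panobinostat, against 1.86, 1.99 and 2.48 CPM in DMSO. The groups were well apart, with replicate 4 the lowest panobinostat library. The means were 15.4 ± 6.26 CPM in panobinostat and 2.11 ± 0.326 CPM in DMSO (SD, n = 3 each), a log2 fold change of 2.88 ± 0.35 (7.38-fold; edgeR adjusted p = 0.000936; higher in 3 of 3 libraries), and 3.12 without replicate 4.

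FOXO1, a factor of insulin signalling reported to bind and activate ERBB3, lies on chromosome 13 from 40555667 to 40666641. It had 33.5, 33.8 and 21.8 CPM in panobinostat, against 8.98, 11.2 and 9.15 CPM in DMSO. All 3 panobinostat libraries were above all 3 DMSO libraries. Its means were 29.7 ± 6.84 CPM in panobinostat and 9.79 ± 1.26 CPM in DMSO (SD, n = 3 each), a log2 fold change of 1.61 ± 0.20 (3.06-fold; edgeR adjusted p = 0.000922; higher in 3 of 3 libraries), and 1.79 without replicate 4.

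FOXO4, a further AKT-controlled member of the family, lies on chromosome X from 71095851 to 71103532. It had 32.3, 32.5 and 22.1 CPM in panobinostat, against 13.1, 14.1 and 12.4 CPM in DMSO. The groups did not overlap, and the gap was narrower than for FOXO1. The means were 29.0 ± 5.94 CPM in panobinostat and 13.2 ± 0.841 CPM in DMSO (SD, n = 3 each), a log2 fold change of 1.14 ± 0.17 (2.20-fold; edgeR adjusted p = 0.00163; higher in 3 of 3 libraries), and 1.29 without replicate 4.

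FOXO3, reported to act at the ERBB3 gene in breast cancer cells, lies on chromosome 6 from 108559825 to 108684774. It had 53.4, 64.2 and 52.7 CPM in panobinostat, against 53.9, 54.4 and 50.4 CPM in DMSO. The groups overlapped, and panobinostat replicate 2 was the only library above the DMSO range. The means were 56.7 ± 6.43 CPM in panobinostat and 52.9 ± 2.15 CPM in DMSO (SD, n = 3 each). The log2 fold change was 0.09 ± 0.10, with a 95% interval of −0.13 to 0.32, or 0.912 to 1.25-fold (edgeR adjusted p = 0.433; log2 fold change 0.10 without replicate 4). FOXO3 was thus not called, and the interval leaves room for a change of up to 1.25-fold.

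Per kilobase, the 4 FOXO transcripts together were at 28.5, 32.0 and 20.4 CPM in panobinostat replicates 1, 2 and 4, against 13.0, 13.8 and 12.6 CPM in DMSO. The sum averaged 27.0 ± 5.96 CPM per kilobase in panobinostat and 13.1 ± 0.575 in DMSO (SD, n = 3 each), a ratio of 2.05. FOXO3 made up 27.9 ± 4.9% of this sum in panobinostat and 52.2 ± 1.3% in DMSO, with 24.2, 26.0 and 33.5% in the panobinostat libraries and 53.7, 51.2 and 51.7% in the DMSO libraries. Per kilobase, the largest FOXO transcript in DMSO was FOXO3. In panobinostat replicates 1 and 2 FOXO4 was the largest per kilobase, and in replicate 4 FOXO3. In CPM, without lengths, FOXO3 was the highest of the 4 in every library. It had 53.4, 64.2 and 52.7 CPM in panobinostat, where FOXO4 had 32.3, 32.5 and 22.1 CPM. The order and the sum therefore depend on the gene lengths used.

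FOXO6 took 24.0, 27.6 and 17.9% of the FOXO sum in panobinostat, against 6.0, 6.0 and 8.2% in DMSO, and FOXO1 took 18.9, 17.0 and 17.2% in panobinostat, against 11.1, 13.1 and 11.6% in DMSO. The FOXO4 share was 32.8, 29.5 and 31.5% in panobinostat and 29.3, 29.7 and 28.5% in DMSO, where panobinostat replicate 2 fell inside the DMSO range. The difference, panobinostat minus DMSO, was −24.3 percentage points for FOXO3, 16.4 for FOXO6 and 5.7 for FOXO1, each with an exact two-sided permutation p of 0.1, which is the smallest that 3 against 3 libraries allow. Without panobinostat replicate 4 these differences were −27.1, 19.1 and 6.0 percentage points. For FOXO4 it was 2.1 percentage points with an exact permutation p of 0.200. Adjusted over the 5 exact tests made here, these are 0.125 and 0.200, so none could pass a threshold of 0.05. The shares depend on the gene lengths taken from GENCODE 29, above all on the 2398 bases of FOXO6: with no length correction the difference was 8.7 percentage points for FOXO6, 10.0 for FOXO1, 5.2 for FOXO4 and −23.9 for FOXO3.

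**Figure D3:**
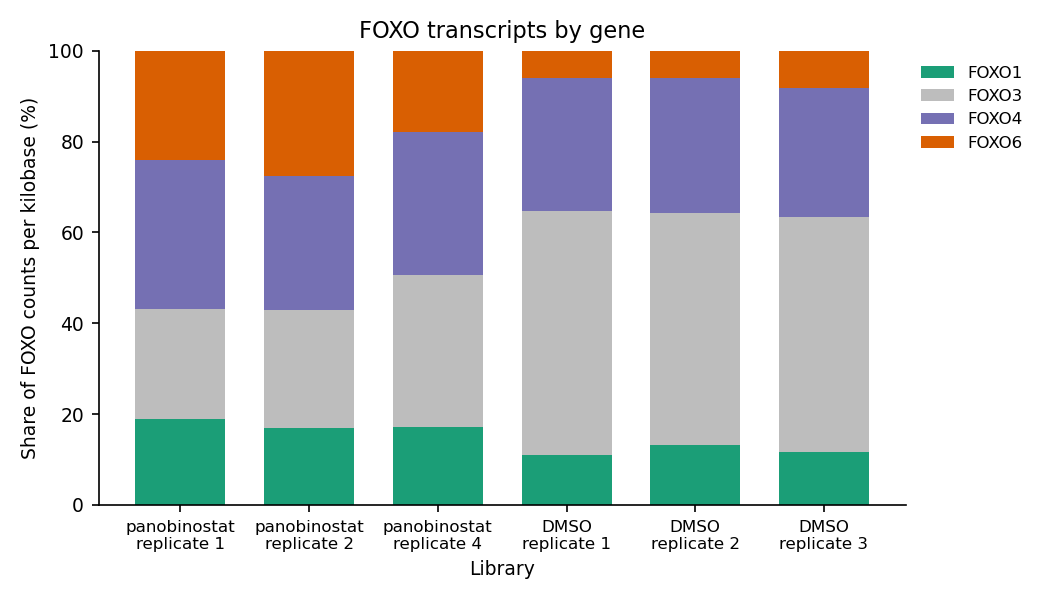
Share of each FOXO gene in the summed FOXO counts per kilobase of exon (percent), 1 bar per library. FOXO3 (grey) takes 24.2 to 33.5% in the 3 panobinostat libraries and 51.2 to 53.7% in the 3 DMSO libraries, and FOXO6 (orange) takes 17.9 to 27.6% in panobinostat and 6.0 to 8.2% in DMSO.

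Of the genes that remove HER3, RNF41 rose and NEDD4 fell. RNF41, whose product ubiquitinates HER3 in the absence of ligand, lies on chromosome 12 from 56202179 to 56221969. It had 72.8, 60.3 and 50.6 CPM in panobinostat, against 39.4, 37.0 and 39.3 CPM in DMSO. All 3 panobinostat libraries were above all 3 DMSO libraries. The means were 61.2 ± 11.1 CPM in panobinostat and 38.6 ± 1.34 CPM in DMSO (SD, n = 3 each), a log2 fold change of 0.68 ± 0.13 (1.60-fold; edgeR adjusted p = 0.00438; higher in 3 of 3 libraries), and 0.82 without replicate 4.

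Within a library, the log2 ratio of ERBB3 to RNF41 counts does not depend on how the library is scaled. It was −0.82, −0.58 and −1.37 in panobinostat replicates 1, 2 and 4, against −3.50, −3.32 and −3.34 in DMSO. The mean was −0.93 ± 0.40 in panobinostat and −3.39 ± 0.10 in DMSO (SD, n = 3 each). The ratio was higher in every panobinostat library than in every DMSO library. The difference of the means was 2.46 on the log2 scale or 5.51-fold (2.68 on the log2 scale without panobinostat replicate 4), with an exact two-sided permutation p of 0.1, the smallest possible with 3 against 3 libraries, and 0.125 adjusted over the 5 exact tests.

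NEDD4, a ligase of the HECT family reported to ubiquitinate HER3, lies on chromosome 15 from 55826917 to 55993612. It had 80.4, 77.4 and 96.8 CPM in panobinostat, against 117, 120 and 108 CPM in DMSO. All 3 panobinostat libraries were below all 3 DMSO libraries. Its means were 84.8 ± 10.4 CPM in panobinostat and 115 ± 6.43 CPM in DMSO (SD, n = 3 each), a log2 fold change of −0.44 ± 0.10 (0.736-fold; edgeR adjusted p = 0.00656; lower in 3 of 3 libraries), and −0.54 without replicate 4.

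LRIG1, on chromosome 3 from 66378797 to 66501121, was scarce in both groups, with 43, 13 and 24 counts in panobinostat and 30, 21 and 11 in DMSO. These were 2.83, 2.39 and 3.61 CPM in panobinostat, against 2.54, 2.99 and 1.71 CPM in DMSO, and the groups overlapped. The log2 fold change was 0.27 ± 0.27, with a 95% interval of −0.35 to 0.89 or 0.782 to 1.86-fold (edgeR adjusted p = 0.415; log2 fold change 0.14 without replicate 4). The log2 fold change of RNF41, 0.68, lies inside this interval, so a change of that size in LRIG1 is not excluded.

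ERBB4, the neuregulin receptor with an active kinase, lies on chromosome 2 from 211375717 to 212538802. It had 9, 4 and 2 counts in panobinostat and 0, 0 and 3 in DMSO. In CPM these were 0.592, 0.735 and 0.301 in panobinostat, and 0, 0 and 0.465 in DMSO. The groups overlapped. The summed counts were 15 in panobinostat and 3 in DMSO, a depth-corrected ratio of 4.63 with an interval of 1.31 to 24.9 that covers counting error only. ERBB4 was the least abundant of the 9 genes in both groups.

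Set in order of level per kilobase, the genes formed a different series in each group. In panobinostat RNF41 (9.36 ± 1.70 CPM per kilobase), NEDD4 (9.30 ± 1.14), FOXO4 (8.41 ± 1.72), FOXO3 (7.35 ± 0.833), FOXO6 (6.44 ± 2.61), FOXO1 (4.77 ± 1.10) and ERBB3 (3.72 ± 1.35) followed each other so closely that the mean ± SD of each neighbouring pair overlapped (n = 3 each). In DMSO NEDD4 (12.6 ± 0.705 CPM per kilobase), FOXO3 (6.85 ± 0.279), RNF41 (5.90 ± 0.206), FOXO4 (3.83 ± 0.244), FOXO1 (1.57 ± 0.202) and FOXO6 (0.881 ± 0.136) were apart by more than their SDs (n = 3 each). LRIG1 was at 0.418 ± 0.0881 CPM per kilobase in panobinostat and 0.343 ± 0.0926 in DMSO, below ERBB3 in panobinostat and overlapping it within their SDs in DMSO.

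The pattern of ERBB3 over the 6 libraries was set beside that of 13294 genes, as the root mean square difference of log2 CPM after each gene was centred on its mean. The 8 most similar were CGN, LMCD1, STC1, MPP7, TNFRSF19, MAST1, LLGL2 and PLCD1, at differences of 0.0995 to 0.144. CGN, which encodes the tight junction protein cingulin, was nearest, with 85.4, 78.1 and 42.3 CPM in panobinostat, against 7.97, 8.40 and 9.31 CPM in DMSO. MPP7 and LLGL2, which encode proteins of cell polarity and junctions, were at 0.120 and 0.140. LMCD1 and STC1 were nearer than these, at 0.106 and 0.118. A shared role of the 8 genes was not tested. Of the genes described here, FOXO6 came nearest to ERBB3 at 0.217, with 29 genes nearer, while FOXO1 was at 0.785 with 545 genes nearer, FOXO4 at 1.02 with 1086 and RNF41 at 1.25 with 2212. Since all 6 libraries enter, this measure mostly ranks genes by the size of their change and by how far replicate 4 departs from replicates 1 and 2.

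ERBB3 and RNF41 lie 98.7 kilobases apart on chromosome 12, with 7 other genes with counts between them. Of the 5 nearest genes with counts on each side of ERBB3, all 10 were tested, and 3 were called higher, 3 lower and 4 not called, beside 30.2% higher and 28.6% lower of all tested genes. The nearest, PA2G4, which encodes the HER3-binding protein EBP1, starts 1.05 kilobases after the end of ERBB3. It averaged 155 ± 23.3 CPM in panobinostat and 208 ± 11.6 CPM in DMSO (SD, n = 3 each), a log2 fold change of −0.43 ± 0.11 (edgeR adjusted p = 0.0103; lower in 3 of 3 libraries), so it moved against ERBB3. SUOX, which encodes sulfite oxidase, had the largest rise among these neighbours at a log2 fold change of 0.78 ± 0.13, well under that of ERBB3. RPS26, a ribosomal protein gene 35.4 kilobases before ERBB3, was at 0.01 ± 0.06 and CDK2, a cell cycle kinase gene, at 0.02 ± 0.07, and neither was called.

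**Figure D4:**
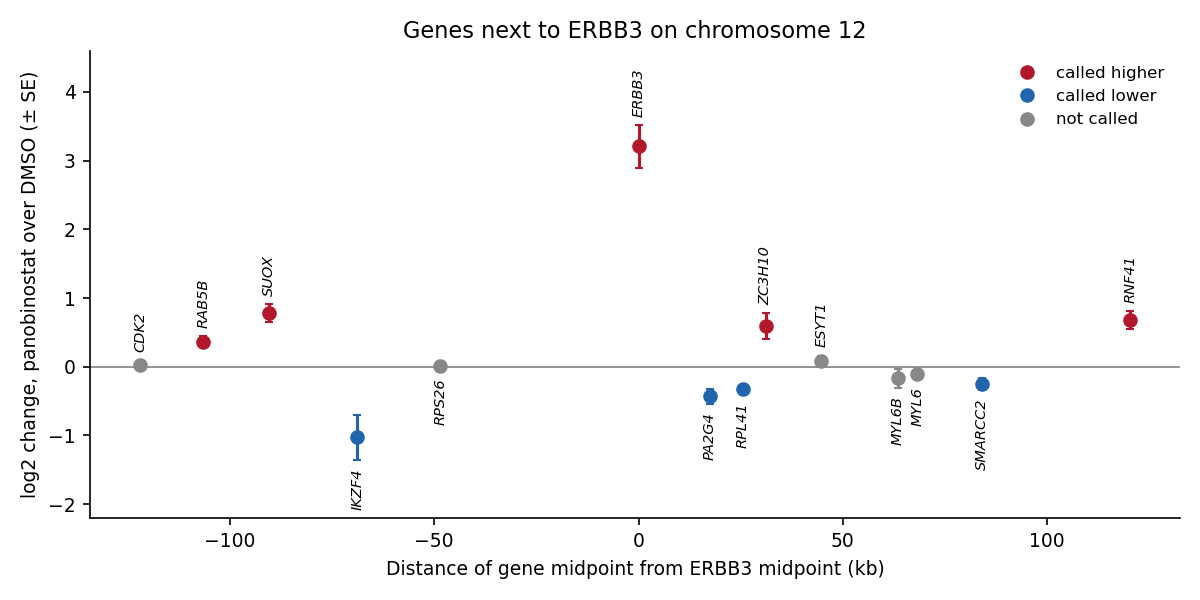
The log2 change of the genes around ERBB3 with its SE (panobinostat over DMSO), by distance of each gene's midpoint from that of ERBB3 in kilobases. Red genes were called higher, blue lower and grey not called. ERBB3 stands at 3.21, while the 10 nearest genes lie between −1.03 and 0.78, and the plot ends with RNF41 at 0.68.

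Among the other receptors and the ligands of the pathway, EGFR, ERBB2 and NRG1 were lower and NRG2 was higher. Of the receptor's partners, EGFR had 299, 296 and 439 CPM in panobinostat, against 596, 574 and 609 CPM in DMSO, and ERBB2, the gene of HER2, had 41.3, 40.8 and 48.6 CPM in panobinostat, against 62.4, 61.2 and 63.6 CPM in DMSO. Both fell in all 3 libraries (log2 fold changes −0.79 ± 0.14 and −0.52 ± 0.09; edgeR adjusted p = 0.00348 and 0.00306). Of the 3 tested receptors, 1 rose and 2 fell. The ligand gene NRG1 had 28.4, 27.8 and 66.7 CPM in panobinostat, against 98.0, 99.5 and 99.1 CPM in DMSO, and NRG2 had 6.97, 5.51 and 4.51 CPM in panobinostat, against 2.97, 3.84 and 2.64 CPM in DMSO. NRG1 was called lower (−1.29 ± 0.30) and NRG2 higher (0.89 ± 0.24), at edgeR adjusted p = 0.00804 and 0.0137, but NRG1 was not called with no filter on low counts (up to 0.108 over its alternatives) nor NRG2 without panobinostat replicate 1, DMSO replicate 1 or DMSO replicate 3 (up to 0.0795). NRG4 was too low to be tested and NRG3 had no row among the genes used here.

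Across 25 genes of ERBB receptor turnover and trafficking, all tested, 10 rose, 5 fell and 10 were not called, beside 30.2% higher and 28.6% lower of all tested genes, and the median log2 fold change was 0.22 beside 0.00 over all genes. Without panobinostat replicate 4 the counts were 13 higher and 7 lower, beside 37.7% and 37.2% of all tested genes. NEDD4L, the closest relative of NEDD4, went the other way from it: it averaged 1650 ± 399 CPM in panobinostat and 529 ± 2.70 CPM in DMSO (SD, n = 3 each), a log2 fold change of 1.64 ± 0.16 (edgeR adjusted p = 0.000631). CBLB, a ubiquitin ligase of activated receptors, rose by 1.06 ± 0.18 on the log2 scale, and ERRFI1, which encodes the kinase inhibitor MIG6, rose by 1.00 ± 0.12, with 976 ± 173 CPM in panobinostat, against 489 ± 13.9 CPM in DMSO. CUL5, the scaffold of a cullin ligase that acts on HER2, fell (−0.84 ± 0.16), as did LRIG3, a relative of LRIG1 (−0.72 ± 0.14). For each of these 5 the groups did not overlap, with edgeR adjusted p between 0.000631 and 0.00465. USP8, which encodes a deubiquitinase that stabilizes the RNF41 product, had a log2 fold change of −0.02 ± 0.08 and was not called (edgeR adjusted p = 0.824).

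**Figure D5:**
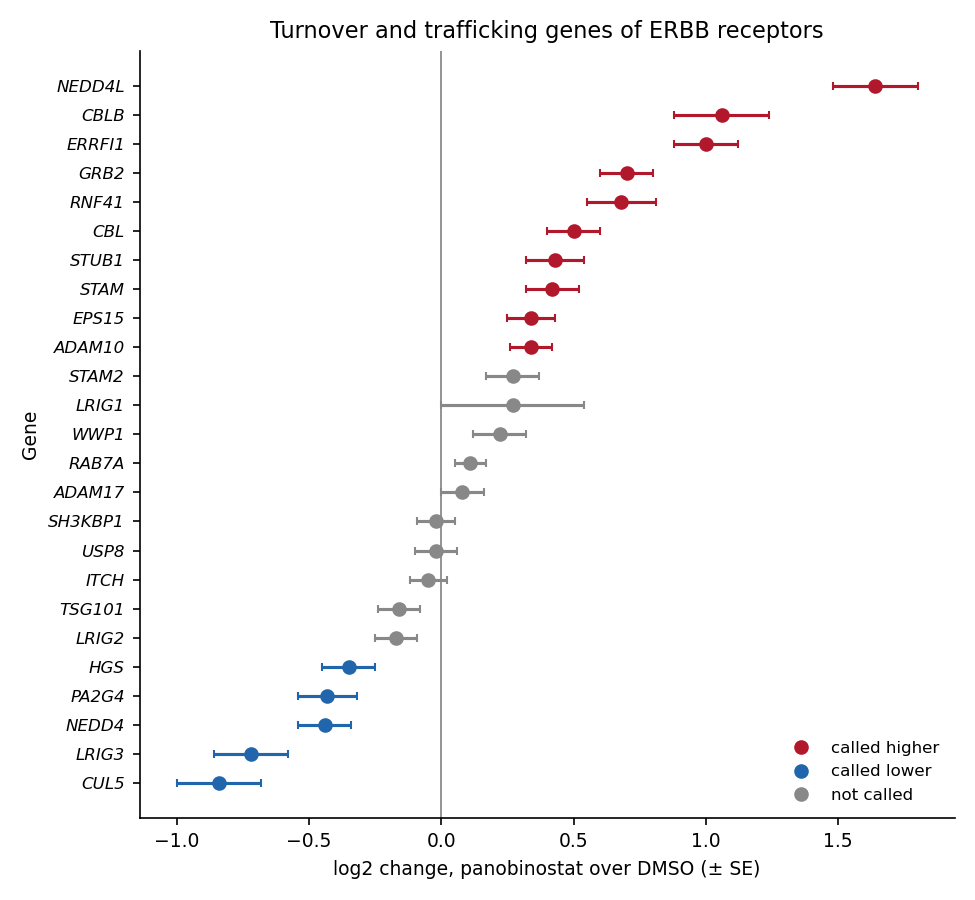
The log2 change (panobinostat over DMSO) of the 25 turnover and trafficking genes with its SE, sorted by size. Red genes were called higher (10), blue lower (5) and grey not called (10), and RNF41, LRIG1 and NEDD4 are among them.

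Of 10 tested factors and cofactors reported at the ERBB3 gene, 2 rose, 5 fell and 3 were not called, beside 30.2% higher and 28.6% lower of all tested genes, and the median log2 fold change was −0.31. Without panobinostat replicate 4 the counts were 3 higher and 5 lower, beside 37.7% and 37.2% of all tested genes. The 2 that rose are FOXO1 and FOXO4 described above. SPDEF, an epithelial ETS factor, averaged 15.4 ± 6.52 CPM in panobinostat and 42.5 ± 1.81 CPM in DMSO, and CTBP2, a corepressor, 56.0 ± 17.2 CPM in panobinostat and 101 ± 1.42 CPM in DMSO (SD, n = 3 each). Both fell, by 1.47 ± 0.24 and 0.86 ± 0.18 on the log2 scale (edgeR adjusted p = 0.00231 and 0.00531; lower in 3 of 3 libraries). GATA3, a luminal factor, had 3.55, 2.76 and 9.78 CPM in panobinostat, against 11.4, 11.2 and 13.0 CPM in DMSO; it was called lower (−1.19 ± 0.39; edgeR adjusted p = 0.0295), but not when any library other than panobinostat replicate 4 was left out (up to 0.113).

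Among 26 tested genes that control FOXO proteins, 7 rose, 11 fell and 8 were not called, with a median log2 fold change of −0.19. Without panobinostat replicate 4 the counts were 8 higher and 15 lower. The shares of all tested genes were 30.2% higher and 28.6% lower, or 37.7% and 37.2% without that library. Beside these, the number of rises is near the background and the number of falls above it, a difference that was not tested. PDPK1, the kinase that activates AKT, rose (0.99 ± 0.14), as did STK4, whose kinase MST1 phosphorylates FOXO factors (0.79 ± 0.10), and the deacetylase gene SIRT2 (0.78 ± 0.14). CREBBP, which encodes a coactivator that acetylates FOXO factors, fell (−1.09 ± 0.21), as did YWHAH, a gene of the proteins that hold phosphorylated FOXO in the cytoplasm (−0.85 ± 0.14). These 5 had edgeR adjusted p between 0.000964 and 0.00388 and no overlap between groups. XPO1, the export receptor for nuclear FOXO, was called lower (−1.20 ± 0.24; edgeR adjusted p = 0.00444), but not with no filter on low counts (0.0698, the highest over its alternatives).

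Of 33 tested genes listed as FOXO targets, 21 rose, 6 fell and 6 were not called, with a median log2 fold change of 0.74 beside 0.00 over all genes, where 30.2% of all tested genes were higher and 28.6% lower. The counts were 24 higher and 6 lower without panobinostat replicate 4, beside 37.7% and 37.2% of all tested genes. The list holds ERBB3, FOXO1 and FOXO6 themselves, and it was made with earlier results of these data known, so its direction is a description. SESN3, a sestrin gene of the stress response, had 38.2, 37.3 and 23.2 CPM in panobinostat, against 2.29, 1.85 and 3.10 CPM in DMSO (3.79 ± 0.27; edgeR adjusted p = 0.000573), a larger rise than that of ERBB3. CDKN1B, the gene of the cell cycle inhibitor p27 and a textbook FOXO target, went the other way, with 27.1, 27.2 and 42.9 CPM in panobinostat, against 53.0, 55.6 and 57.9 CPM in DMSO (−0.78 ± 0.17; edgeR adjusted p = 0.00654). PIK3CA, the gene of a catalytic PI3-kinase subunit, also fell (−0.94 ± 0.20; edgeR adjusted p = 0.00564), and RICTOR was called lower (−0.42 ± 0.11; edgeR adjusted p = 0.0112) but not without DMSO replicate 2 (0.0508, the highest over its alternatives).

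Of 16 tested genes of the signalling below HER3, 3 rose, 7 fell and 6 were not called, with a median log2 fold change of −0.27. The share called in either direction is near the 58.9% of all tested genes. By direction, the share higher is below the 30.2% of all tested genes and the share lower above their 28.6%, a difference that was not tested. The counts were 5 higher and 9 lower without panobinostat replicate 4, beside 37.7% and 37.2% of all tested genes. PIK3CD, another catalytic PI3-kinase subunit gene, averaged 78.4 ± 14.4 CPM in panobinostat and 36.9 ± 2.52 CPM in DMSO (SD, n = 3 each) and rose by 1.09 ± 0.14 on the log2 scale. The adaptor gene GRB2 rose by 0.70 ± 0.10, while SHC3, another adaptor gene, and SOS2, an exchange factor gene for RAS, fell by 0.66 ± 0.11 and 0.62 ± 0.14. These 4 had edgeR adjusted p between 0.00110 and 0.00644 and were outside the DMSO range in 3 of 3 libraries.

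The authors' deposited table of their own comparison gave log2 fold changes of 2.18 for ERBB3 (SE 0.53, adjusted p = 0.000339), 1.87 for FOXO6 (SE 0.57, adjusted p = 0.00389), 1.24 for FOXO1 (SE 0.29, adjusted p = 0.000185), 0.92 for FOXO4 (SE 0.22, adjusted p = 0.000241) and 0.57 for RNF41 (SE 0.15, adjusted p = 0.00107). In the authors' deposited table NEDD4 had −0.38 (SE 0.11, adjusted p = 0.0037), while FOXO3, LRIG1 and ERBB4 had adjusted p of 0.642, 0.698 and 0.376. The authors' deposited table does not state its direction, tool or libraries, and its signs are those of panobinostat over DMSO in the counts. Its sizes for ERBB3 and FOXO6 were smaller, below the 95% intervals found here (2.49 to 3.93 and 2.07 to 3.70). Those for FOXO1, FOXO4, RNF41 and NEDD4 lay inside their intervals. The reason for the smaller sizes was not tested.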

How the data were processed

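Total RNA went into stranded mRNA libraries, per the labels' protocols. The authors deposited raw counts per gene, from featureCounts by the name of the table, on GRCh38.p14 per the submitters' processing notes. What aligner, annotation and strand setting were used was not given in the sources used here, so reads of antisense genes cannot be told apart. The deposited table also holds the authors' comparison: a mean normalised signal, log2 fold changes with SE, a score that is their quotient, and p-values. Its 30199 lines repeat 148 identifiers and run out of step with the counts after 61 lines, so both were matched by identifier.

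Counts were tested with edgeR 4.0.16 in R 4.3.3 (quasi-likelihood, robust, TMM, filterByExpr, treatment as the only term) with Benjamini-Hochberg adjustment over the 13341 genes tested, 16710 being filtered out. A gene was called under 0.05, and 8519 genes had an unadjusted p under 0.05. The procedure was tested on simulated counts in which few genes changed and no library stood apart, unlike these data. Intervals are at 95%. The series' text says conditions were repeated independently. Alternatives used DESeq2 1.42.0 and limma 3.58.1, other scalings, no filter, each library left out, a replicate block and shares without lengths. A prior count of 0.125 entered the log2 CPM of the likeness measure. Lengths are exon unions of GENCODE 29, and coordinates and promoters are from RefSeq.

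The members, gene lists and tests were chosen with earlier results of these data known. Named from each list were up to 3 called genes per direction, by size, with a mean of at least 1 CPM, the 8 genes most like ERBB3 and the 5 nearest on each side. USP8, YWHAE and the marker genes with values were chosen after their values were seen.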

Additional observations from a re-analysis of the deposited data

Results flagged for a closer look

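The deposited table has a sum column that holds 76184320 counts, while the 6 libraries hold 52742848, so 23441472 counts come from libraries not analysed here, whose treatment the sum does not give. ERBB3 had 130 of those counts, or 5.55 CPM, which drew attention as signal outside the libraries compared. CPM in this paragraph's pooled counts are over their own total, without TMM scaling, and pool an unknown number and mix of libraries. The pooled ERBB3 value lies between the panobinostat libraries (19.6 to 41.1 CPM) and the DMSO libraries (3.47 to 3.88 CPM). It need not be the level of any library. In the same counts FOXO1 was at 15.3 CPM, FOXO4 at 16.2 CPM, FOXO6 at 3.63 CPM, FOXO3 at 53.9 CPM, RNF41 at 37.7 CPM and NEDD4 at 123 CPM.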

How the results depend on the processing

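The calls of ERBB3, FOXO1, FOXO4, FOXO6, RNF41 and NEDD4 kept their direction and stayed under the threshold in all 13 alternatives, with 3.01 to 3.51 for the ERBB3 log2 fold change and adjusted p up to 0.0100 for ERBB3 and 0.0332 for NEDD4 (edgeR, DESeq2 or limma). FOXO3 and LRIG1 were called in none of the 13. The direction of LRIG1 turned with the replicate block, at a log2 fold change of −0.0042 (edgeR adjusted p = 0.991; 0.290 to 0.991 over its alternatives). With the replicate block, which rests on the numbers 1 and 2 that both groups carry, ERBB3 was at 3.51 and no other call among the 8 genes changed. No label gives these numbers a shared batch. The deviations of same-numbered libraries from their group means had correlations of 0.049 and 0.005. Those means include panobinostat replicate 4, which stood apart, so the correlations cannot show whether a batch was shared. With no length correction the FOXO share difference moved to 10.0 percentage points for FOXO1, 5.2 for FOXO4 and 8.7 for FOXO6. Leaving out each library in turn gave 2.29 to 2.68 for the log2 ratio of ERBB3 to RNF41, −27.1 to −22.4 percentage points for the FOXO3 share, 14.2 to 19.1 for FOXO6, 5.1 to 6.3 for FOXO1 and 1.3 to 3.0 for FOXO4, and 3105 to 5024 genes called higher and 2660 to 4969 lower. Depth limits LRIG1, with 11 to 43 counts a library, and ERBB4, where 3 counts correspond to 0.199 to 0.557 CPM. The direction of the authors' comparison, and which libraries it used, are not stated.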

Other observations

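YWHAE, from the list on FOXO control, had 1 library far from the rest of its group. It had 11.0, 10.7 and 101 CPM in panobinostat replicates 1, 2 and 4, against 17.9, 17.8 and 16.0 CPM in DMSO. Its log2 fold change was 1.21 ± 0.81 with all libraries and −0.67 without panobinostat replicate 4, so that library set its direction. YWHAE was not called with all 6 libraries (edgeR adjusted p = 0.227), but was called without panobinostat replicate 4, where it was lower, and with the replicate block. Its adjusted p ran from 6.44e-08 to 0.506 over its alternatives.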
